A study of Vitis vinifera with 204 samples.

Results

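The 200 genes described here were chosen because their RNA was far higher in ripening grape berries than in green ones and stayed at about that level until harvest. They came from RNA-seq of berry pericarp of Cabernet Sauvignon, a red wine grape, with 3 libraries in each of 68 groups of season, time point and thinning arm (2012, 2013 and 2014). Each gene was averaged as log2(RPKM + 1) in green berries (G, before day 0), in early ripening (E, days 8 to 22) and at harvest (H, the last 2 time points of a season), within each season and then over the 3 seasons. RPKM is a read count scaled by gene length and library size, and day 0 is veraison, the onset of ripening. Of 29971 gene IDs in the deposited table, 20770 reached 1 RPKM in at least 3 libraries and 9201 did not. Among the 17867 of these whose H and E differed by less than 1 on the log2 scale, the 200 with the largest E − G are the members. All 200 were tested, but 4 of them reached 1 RPKM in fewer than 3 green libraries and passed the filter through later ones. The middle of ripening (M, after day 22 and before the last 2 time points) and day 0 itself were not used to choose the genes.

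The vines were a single clone on 1 rootstock in a vineyard near Modesto, California. All analysed vines had lost clusters after fruit set: in the 50% arm 1 cluster was left on each shoot, and in the 75% arm 1 cluster on every second shoot. Unthinned vines, the study's control, are not analysed here. Each arm was sampled with 3 libraries at 12 time points in 2012 (day −28 to day 80), 10 in 2013 (day −20 to day 43) and 12 in 2014 (day −14 to day 63), and each library came from a pool of 60 berries of 6 clusters, with the seeds removed while grinding. A difference between bulk samples of this kind can come from fewer cells of a type or from less RNA per cell, which cannot be told apart. P-values rest on the spread between the 3 pools of an arm and time point, taken as 1 value per gene over all groups. For thinning over the whole course, this spread also holds differences of the arms between time points.

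Grape berries grow in 2 phases separated by a lag, and veraison opens the second: within days the berry softens, takes up sugar, loses acid and, in red cultivars, colours its skin with anthocyanins. Softening involves enzymes and expansins that loosen the cell wall, sugar arrives from the phloem and is stored as hexose in the vacuole, and defence-type proteins such as thaumatin-like proteins and chitinases build up in the flesh. The files give the genes by ID alone, and 0 of the IDs matched the reference table of 29591 genes, so no gene is given a name or a role here. Marker genes of skin, flesh or seed could therefore not be looked up either. The members are described by their level, course, timing and ID.

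Libraries held summed RPKM values of 817623 to 1105136, with a median of 925588, and their read depth is unknown. No 2 libraries were identical. In 83 libraries (all 72 of 2014 and 11 of 2013) at least 20 of 9114 otherwise steadily expressed genes were listed under 0.5 RPKM. These are called the second form of the values, and the results that move with them are given below. In the fit across all genes, the second form was associated with a 2-fold or larger difference, at a limma adjusted p under 0.05, in 3 of the 200 members and in 406 of 20770 genes. That estimate rests on 2 green-stage groups of 2013, each with 1 library of the second form and 2 of the first.

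In green berries the 200 genes were a small part of the RNA, and during ripening a large one. Their share of the summed RPKM had a median of 1.31% over the 48 green libraries (0.908% to 6.49%), 9.59% over the 18 libraries of day 0 (2.93% to 11.5%) and 18.0% over the 48 of early ripening (11.0% to 28.8%). It was 22.5% over the 54 libraries of the middle of ripening (18.3% to 30.7%) and 20.1% over the 36 harvest libraries (15.5% to 28.3%). No early, middle or harvest library overlapped a green one, whereas day 0 reached down into the green range. The green, early and harvest values follow from how the genes were chosen. Those of day 0 and the middle were measured in libraries that had no part in it, at times between the stages that did. In 2012, day −28 had a mean share of 1.07% ± 0.08 (SD, n = 6). By day 42 it was 27.4% ± 2.95, and by day 74 it was 17.0% ± 1.50. The 2013 mean was highest on day 22, at 23.3% ± 1.10, and the 2014 mean on day 42, at 22.8% ± 2.72.

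**Figure D1:**
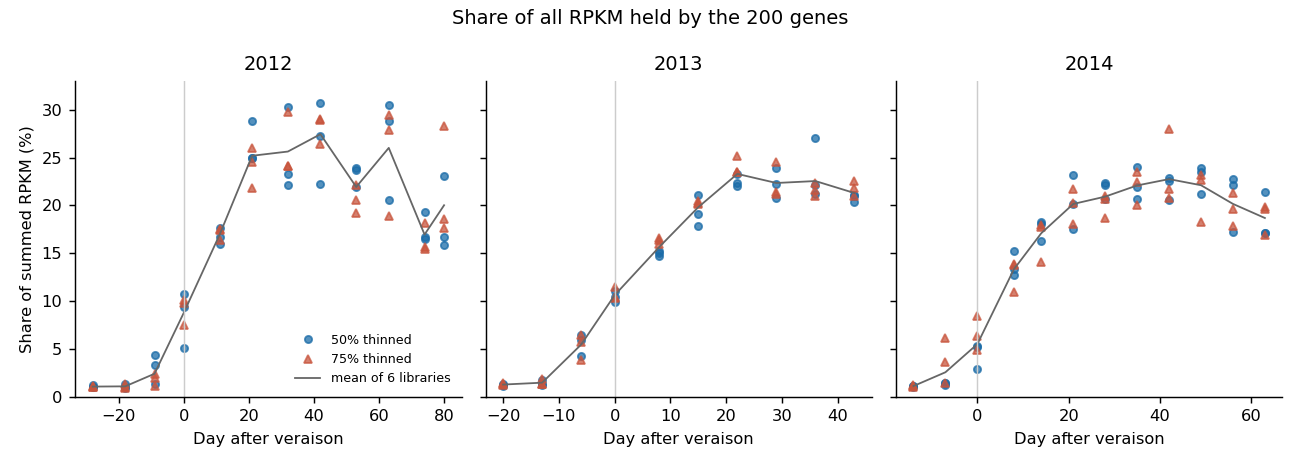
Share of the summed RPKM (%) held by the 200 genes against day after veraison, 1 panel per season, with a point for each library (circles 50%, triangles 75% thinned) and a line through the mean of 6 libraries. The 48 green libraries lie between 0.908% and 6.49%, and the 54 middle libraries between 18.3% and 30.7%.

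A few members carried most of this RNA. In early ripening the top 5 genes held 58.5% of the members' RPKM, and the top 20 held 89.8%. The top gene alone, VIT_08s0056g01610, held 18.4%. Outside the top 5, the members' share still went from a median of 4.10% on day 0 to 7.64% in early ripening, 9.95% in the middle and 8.86% at harvest. Counted by mean level, 20 members lay under 1 RPKM in green berries and 5 lay at 1000 RPKM or more. In early ripening the same classes held 0 and 20 members, and in the middle 0 and 23. The median member had a mean of 9.09 RPKM in green berries, 36.3 on day 0, 45.0 in early ripening, 48.6 in the middle and 46.4 at harvest. After day 0, 184 of the 200 reached 1 RPKM in every one of the 138 libraries.

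The member with the largest difference, VIT_12s0034g01970, was nearly silent before ripening. Its green libraries ranged from 0.202 to 518 RPKM with a median of 0.925. On day 0 its libraries ran from 6.18 to 496 RPKM (median 186), in early ripening from 551 to 3102 (median 1645), in the middle from 1595 to 3565 (median 2802) and at harvest from 2568 to 3524 (median 2930). Every early, middle and harvest library lay above all green and day 0 libraries. E − G was 8.76 and H − E was 0.94 on the log2 scale, so this gene lay close to the upper limit for a kept gene, and in 2014 alone its H − E was 1.14.

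The second, VIT_11s0016g04920, reached higher levels. Green libraries held 0.507 to 1544 RPKM (median 7.07), day 0 libraries 72.7 to 3506 (median 1099) and early libraries 2351 to 13231 (median 5568). Middle libraries held 2413 to 13736 RPKM (median 8664) and harvest libraries 1951 to 9704 (median 6730). Its green and early ranges did not overlap, but its highest day 0 library lay within the early range. E − G was 8.63 and H − E was 0.09.

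The member with the highest mean level in early ripening, VIT_08s0056g01610, was not silent at first. It held 1040 to 9971 RPKM in green libraries (median 2733), 3688 to 26375 on day 0 (median 8285), 4757 to 116859 in early ripening (median 29428), 25254 to 76671 in the middle (median 40887) and 21357 to 58678 at harvest (median 31438). Its green and early ranges overlapped, and its E − G was 3.36, rank 36 of the 200. The next by mean level in early ripening, VIT_05s0049g00760, held 5.76 to 7134 RPKM in green libraries (median 44.0), 1624 to 13441 on day 0 (median 10036) and 8119 to 30357 in early ripening (median 21981). Its middle libraries held 11731 to 33095 RPKM (median 19439) and its harvest libraries 5340 to 25746 (median 14624). E − G was 7.80, and H − E was −0.69 over the seasons and −1.23 in 2012.

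Over all members E − G ran from 1.68 to 8.76 with a median of 2.48, where the median over all 20770 genes was −0.24. It was 2 or more in 145 members, 3 or more in 60 and 5 or more in 15. H − E had a median of −0.04 in the members and 0.05 in all genes, with 98 members above 0 and 102 below. At the edge of the rule, the last 2 members (VIT_02s0025g04890 and VIT_02s0025g01430) had E − G of 1.69 and 1.68, and the next 2 genes outside (VIT_13s0067g03820 and VIT_08s0007g00180) had 1.68 and 1.67. On the other limit, 18 members had H − E of 0.9 or more in size. A further 197 genes had an E − G at or above that of the last member but lay outside the limit on H − E, 125 of them lower and 72 higher at harvest, and 17 of the 197 missed the limit by less than 0.1. Chosen again in 1 arm alone, the list shared 185 genes with the 200 in the 50% arm and 187 in the 75% arm.

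The increase was found in each season, while the level after it was kept less evenly. E − G was above 0 in all 3 seasons for 200 members and at least 1 in all 3 for 193, beside 2.93% of all tested genes with a 2-fold difference in each season. Its median was 2.87 in 2012, 2.27 in 2013 and 2.46 in 2014. Across the 200 genes, Pearson's r of E − G between pairs of seasons lay between 0.82 and 0.85, a description over genes that were selected on this value. By contrast, H − E stayed under 1 in size in each season for 116 members. In 2012, 50 members were at least 2-fold lower at harvest than in early ripening, beside 11.3% of all tested genes, and 12 at least 2-fold higher, beside 11.1%. The corresponding counts were 9 and 7 in 2013 (6.84% and 2.53% of all genes) and 2 and 12 in 2014 (8.11% and 7.39%). These counts use the contrast of the rule and are a description.

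The lower values at harvest of 2012 belonged to its last 2 time points. On day 74, 52 members lay at least 2-fold below early ripening and on day 80, 46, after 9 to 17 members on days 32 to 63. Of the 50 members with the lower harvest mean of 2012, 1 was also 2-fold lower in 2013 and 1 in 2014. Smaller differences of the same sign were common in them: 41 of the 50 were lower at harvest than in early ripening in 2013 and 45 in 2014, with median H − E of −1.34 in 2012, −0.28 in 2013 and −0.55 in 2014. The 2012 harvest libraries were picked on days 74 and 80, those of 2013 on days 36 and 43 and those of 2014 on days 56 and 63, so season and time since veraison cannot be told apart.

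**Figure D2:**
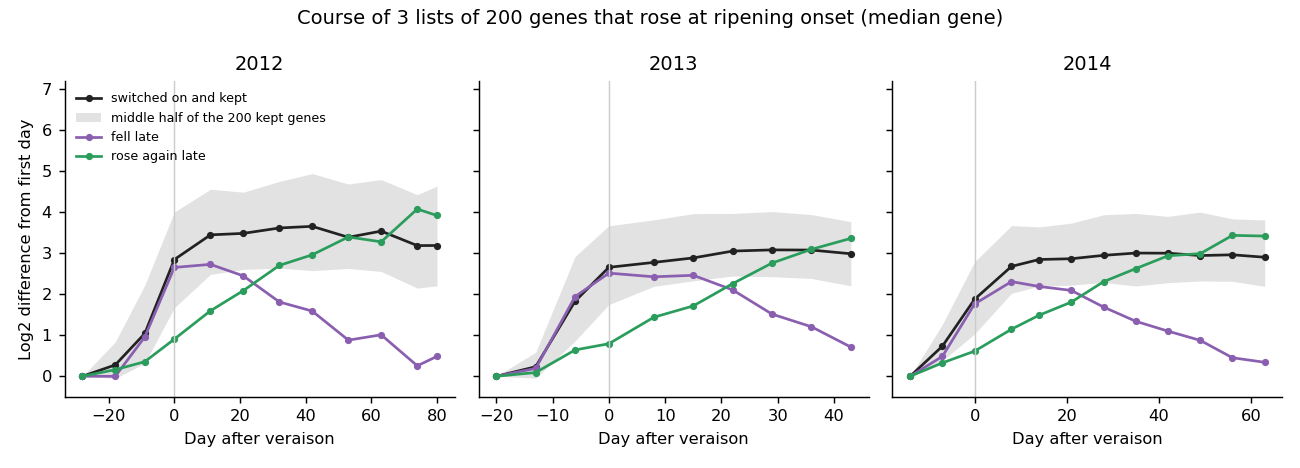
Median log2 difference from the first day of the season against day after veraison, for the 200 kept genes (black, with the band of their interquartile range) and for 2 other lists. Those hold the 200 genes with the largest E − G among genes with an H − E of −1 or less (purple) or of 1 or more (green). The kept genes' median was 3.66 on day 42 and 3.19 on day 80 of 2012, and in 2014 it lay between 2.68 on day 8 and 3.01 on day 35.

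For most members a large part of the increase came before or on day 0. The largest rise between neighbouring time points fell between day −9 and day 0 for 109 members (54.5%) in 2012, between day −13 and day −6 for 133 (66.5%) in 2013 and between day −7 and day 0 for 93 (46.5%) in 2014. In 2014 another 60 members (30%) had theirs between day 0 and day 8. Measured from the first day, the median member was 1.04 higher (log2) on day −9 and 2.85 on day 0 of 2012. In 2013 it was 1.83 higher on day −6 and 2.66 on day 0, and in 2014 0.73 on day −7 and 1.88 on day 0. Replicate pools of some groups differed widely just before veraison. Within the 75% arm on day −7 of 2014, the members' share of RPKM was 6.18%, 1.45% and 3.63% in the 3 libraries, and in the 50% arm it was 1.42%, 1.27% and 1.43%. The median member had an SD of 0.83 (log2, n = 3) in that 75% group, where the median over all tested genes was 0.14.

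Progress on day 0 was expressed as the part of each member's own log2 difference between green and early berries that was present on day 0, within the season. This share had a median of 76.8% in 2012 (interquartile range over the members 53.6% to 91.6%), 87.3% in 2013 (64.4% to 108%) and 61.2% in 2014 (38.1% to 76.2%). At least 50% of the difference was present in 156, 168 and 127 members, in the order of the seasons. The full difference or more was present in 33, 62 and 13. For 155 members the 2014 share was the lowest of the 3, for 131 the 2013 share was the highest, and 108 followed the order 2013, 2012, 2014. Across the 200 genes, Spearman's rho between seasons was 0.64 for 2012 and 2013, 0.81 for 2012 and 2014 and 0.69 for 2013 and 2014 (Pearson's r 0.52, 0.77 and 0.57). The genes share their libraries, so these are descriptions. Single values ran from −119% to 295%.

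**Figure D3:**
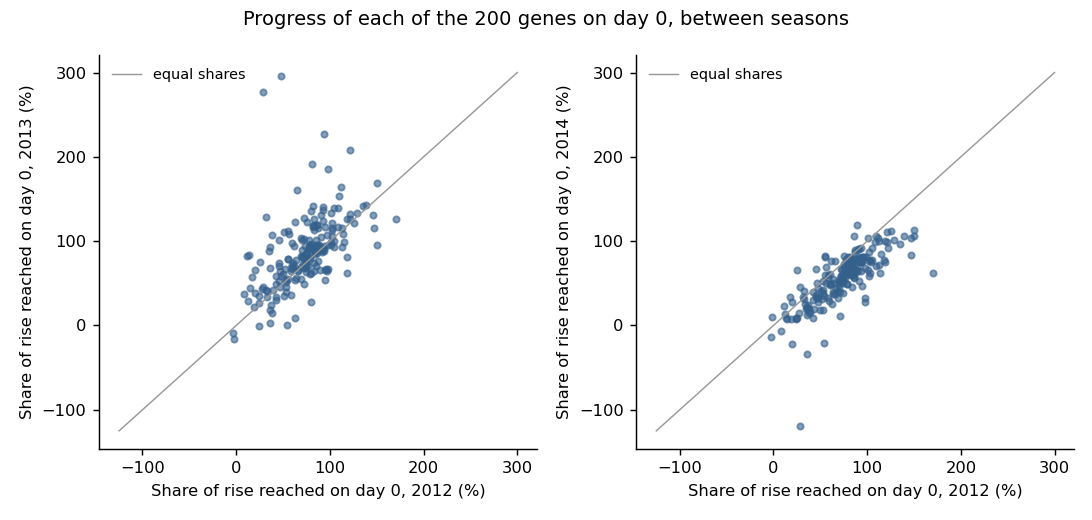
Share of the green-to-early log2 difference reached on day 0 (%), 1 point per gene, in 2013 (left) and 2014 (right) against 2012, with a line of equal shares. Most points lie below the line in 2014, whose median is 61.2% against 76.8% in 2012.

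Early and late members could be told apart on this scale. In 49 members at least 75% of the difference was present on day 0 of every season, and in 24 members less than 50% was. The 49 early members had a median E − G of 2.53 and a median H − E of −0.38. The 24 late members had medians of 2.15 and 0.36. At the early end stood VIT_08s0007g08330, with 126%, 121% and 112% in 2012, 2013 and 2014. Its green libraries held 0 to 402 RPKM (median 0.312), its day 0 libraries 144 to 467 (median 280) and its early libraries 71.6 to 260 (median 134). It was thus higher on day 0 than afterwards, and its middle libraries held 43.0 to 205 RPKM. At the late end stood VIT_05s0020g01070, with −2.94%, −9.17% and −14.1%. Its day 0 libraries held 0 to 0.874 RPKM (median 0.155), no more than its green ones (0 to 3.00, median 0.258), and its middle libraries 8.79 to 58.9 (median 25.3). At harvest it held 0.563 to 20.3 RPKM (median 5.97), so that a peak in the middle lies between the early and harvest means that met the rule. These 2 genes were chosen after their values were seen.

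Day 0 did not mark the same sugar content in each season. Sugar in the day 0 pools was 7.57 ± 1.39 g/100 ml (SD, n = 6) in 2012, 8.49 ± 1.38 in 2013 and 3.04 ± 1.15 in 2014. In 2014 the 50% pools held 2.80, 1.20 and 3.28 g/100 ml with 5.26%, 2.93% and 5.24% of RPKM in the members, and the 75% pools held 3.67, 2.65 and 4.65 with 6.37%, 4.84% and 8.41%. The pool with the least sugar had the lowest share and the pool with the most had the highest. In 2012 the 6 pools held 6.43 to 10.33 g/100 ml and 5.12% to 10.7%. The 50% pool with 7.09 g/100 ml had the lowest share of that season, 5.12%, beside 9.39% and 10.7% in pools with 7.12 and 7.00. In 2013 the 6 pools held 6.77 to 10.66 g/100 ml and 9.93% to 11.5%. The 2014 pools lay below all others in sugar, so no correlation over all 18 pools is given.

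**Figure D4:**
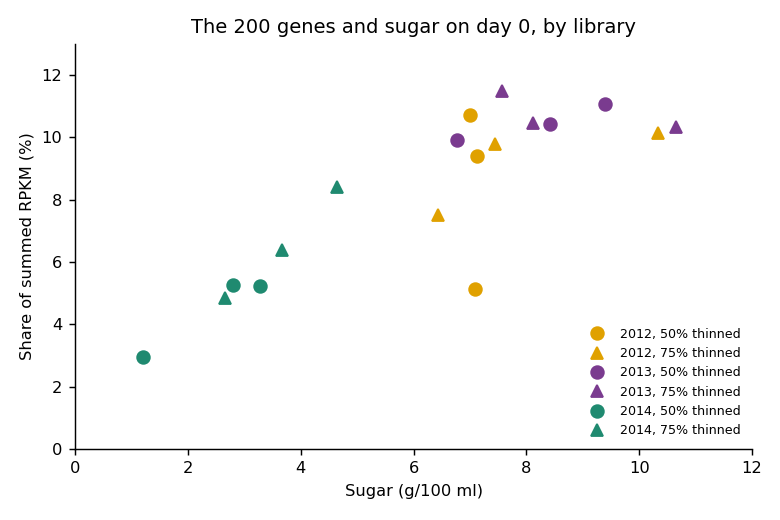
Share of the summed RPKM (%) held by the 200 genes against sugar (g/100 ml) in the 18 pools of day 0, by season (colour) and thinning (circles 50%, triangles 75%). The 2014 pools lie at 1.20 to 4.65 g/100 ml and 2.93% to 8.41%, those of 2013 at 6.77 to 10.66 g/100 ml and 9.93% to 11.5%.

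The middle of ripening was compared with day 0 to ask how far the genes went on changing once ripening had begun. These libraries had no part in the choice of the genes, but they lie in time between the stages that the rule compared. The rule therefore favours a middle above day 0, and the excess of increases over all genes is a description. Of the 200 members, 91 changed at least 2-fold at a limma adjusted p under 0.05, 84 higher and 7 lower in the middle. Over all tested genes 17.2% changed, 5.77% higher and 11.5% lower. The members' median difference was 0.86 (log2), that of all genes −0.05, and each of the 91 had the same sign in all 3 seasons. The split into early and late members was made on the same day 0 libraries and so largely fixes what they do here: all 24 late members were called higher, and of the 49 early ones 1 was called higher and 5 lower. The largest increase was in VIT_05s0020g01070, given above, with 4.42 ± 0.16 (SE, limma adjusted p = 6.75e-57). VIT_12s0034g01970 followed with 4.35 ± 0.22 (limma adjusted p = 6.21e-41), its 54 middle libraries all above its 18 of day 0. The largest decrease was in VIT_05s0077g00430, with a median of 4.91 RPKM on day 0 (0.135 to 18.2) and 0.648 in the middle (0.0458 to 4.97), ranges that overlapped. It fell by 1.60 on the log2 scale (SE 0.20, limma adjusted p = 2.03e-12). VIT_03s0063g01960 fell from a median of 53.2 RPKM (19.9 to 73.7) to 14.9 (8.67 to 26.4), a log2 difference of −1.43 ± 0.15 (limma adjusted p = 4.10e-17). Sugar was 22.2 ± 2.39 g/100 ml in the middle and 6.37 ± 2.74 on day 0.

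Within the middle of ripening, few members changed. Between day 32 and day 63 of 2012, 7 changed at least 2-fold, 1 higher and 6 lower, beside 2.95% of all tested genes (0.881% higher, 2.07% lower), and the members' median difference was −0.03. Between day 28 and day 49 of 2014 there were 4, 1 higher and 3 lower, beside 2.83% (1.19% higher, 1.64% lower), with a median of −0.02. Both shares of members (3.5% and 2%) lay near the background. Set beside them were the 200 genes with the largest E − G among those with an H − E of −1 or less. Of these, 84 were lower on day 63 of 2012 and 76 on day 49 of 2014, and none was higher. Of the 200 chosen likewise with an H − E of 1 or more, 33 and 35 were higher and none was lower. In these lists, 125 and 72 genes had an E − G at or above that of the last member, and the others rose less. The rule fixed the later course of all 3 lists, so these counts are set side by side as a description. In 2013 the middle held 1 time point, and no such comparison was made.

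VIT_14s0060g00310 was lower later on in both seasons. On day 32 of 2012 its 6 libraries held 69.3 to 323 RPKM (median 249) and on day 63 they held 23.9 to 82.9 (median 44.6), a difference of −2.08 ± 0.26 (limma adjusted p = 1.73e-11). On day 28 of 2014 they held 126 to 234 RPKM (median 187) and on day 49 56.7 to 87.0 (median 65.3), with no overlap and a difference of −1.45 ± 0.26 (limma adjusted p = 1.41e-06). VIT_00s0125g00070 went in opposite directions. In 2012 its libraries held 1243 to 2028 RPKM on day 32 and 113 to 1743 on day 63 (log2 difference −2.07 ± 0.54, limma adjusted p = 0.00117). In 2014 they held 88.1 to 1853 RPKM on day 28 and 233 to 1176 on day 49 (1.46 ± 0.54, limma adjusted p = 0.0257). On day 28 of 2014, 4 of the 6 libraries lay at 88.1 to 152 RPKM and the other two at 720.5 and 1853.

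Thinning was the contrast of the study, and over the whole course few of the 200 genes differed between the arms. In the 75% arm minus the 50% arm, averaged over the seasons, 2 members passed a limma adjusted p of 0.05, 1 in each direction, beside 0.809% of all genes (0.169% higher, 0.64% lower). VIT_01s0137g00430 had a median of 125 RPKM (4.31 to 267) in the 102 libraries of the 75% arm and 112 (4.77 to 267) in the 102 of the 50% arm. Its difference was 0.19 ± 0.05 (log2, limma adjusted p = 0.0391). VIT_06s0009g02810 had medians of 8.29 and 13.6 RPKM and a difference of −0.22 ± 0.06 (limma adjusted p = 0.0395). The latter is 1 of the 3 members tied to the form of the values, and with a term for the form in the fit no member was called. In the middle of ripening, 0 members were called by limma, beside 0% of all genes, and 2 members (1%, against 1.53% of all genes) had an unadjusted p under 0.05.

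On day 0 the arms differed in more of the members, and most were higher at 75% thinning. Averaged over the seasons, 25 members passed a limma adjusted p of 0.05, 24 higher and 1 lower, where 7.44% of all tested genes passed, 1.69% higher and 5.75% lower. The members' median difference was 0.26 (log2) and that of all genes −0.04, and 24 of the 25 had the same sign in each season. VIT_08s0007g01110 had a median of 11.1 RPKM (3.66 to 14.0) in the 9 libraries of the 75% arm and 4.20 (0.742 to 11.7) in the 9 of the 50% arm, with a difference of 0.77 ± 0.23 (limma adjusted p = 0.0214). VIT_14s0108g00800 had medians of 8.65 RPKM (4.45 to 11.0) and 4.51 (1.93 to 8.59), with a difference of 0.67 ± 0.21 (limma adjusted p = 0.0369). The arms overlapped in both genes. Sugar was 6.84 ± 2.78 g/100 ml in the 75% pools and 5.90 ± 2.78 in the 50% pools (SD, n = 9 each), and its part in these differences was not tested. Without 2014 no member was called, without 2012 13 were, and without the second or the third replicate of every group 2 were.

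Higher values at 75% were not shown to be particular to 2014, as the test between seasons given below called 0 members higher. Taken season by season, members were called on day 0 of 2014 alone. In that season 38 members were called, 32 higher and 6 lower at 75% thinning, beside 10.3% of all tested genes, 1.28% higher and 9% lower. The members' median difference was 0.50 (log2) and that of all genes −0.08. The median member had an SD of 0.41 (log2, n = 3) at 50% and 0.34 at 75%. On day 0 of 2012 these were 0.36 and 0.25, and on day 0 of 2013 0.15 and 0.13. The fit used 1 spread per gene over all groups, so the p-values of day 0 of 2014 can be too small. In 2012 limma called 0 members (0.332% of all genes), and 21 (10.5%) had an unadjusted p under 0.05, no larger a share than the 10.9% of all genes. The median difference in 2012 was 0.26, with 166 members above 0. In 2013 it called 0 (0.00481%), 1 (0.5%, against 1.04% of all genes) had an unadjusted p under 0.05 and the median was 0.05. Sugar of the 2014 pools was 3.66 ± 1.00 g/100 ml at 75% and 2.43 ± 1.09 at 50% (SD, n = 3 each). In 2012 it was 8.07 ± 2.02 and 7.07 ± 0.06, and in 2013 8.78 ± 1.65 and 8.20 ± 1.33. The 2014 count depended on single pools: it was 11 (5 higher, 6 lower) without the 50% pool that held 1.20 g/100 ml of sugar, 7 (2 higher, 5 lower) without the 75% pool that held 4.65, 22 without the 75% pool with 3.67 and 61 without the one with 2.65.

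Of the genes higher at 75% on day 0 of 2014, VIT_08s0007g01110 held 10.9, 11.1 and 12.9 RPKM at 75% and 2.98, 3.92 and 5.18 at 50%. The arms did not overlap, and the difference was 1.35 ± 0.39 (log2, limma adjusted p = 0.0140). VIT_08s0007g03560 held 2.54, 5.79 and 7.18 RPKM at 75% and 0.120, 2.66 and 3.69 at 50%. Here the arms overlapped, and the difference was 1.12 ± 0.34 (limma adjusted p = 0.0183). Among the 6 that were lower, VIT_14s0066g00700 held 59.2, 23.9 and 70.7 RPKM at 75% and 447, 138 and 615 at 50% (replicates 1, 2 and 3), a difference of −2.83 ± 0.95 (limma adjusted p = 0.0388). All 3 pools of the 75% arm lay below the lowest of the 50% arm. In the 50% arm, replicate 2, the pool with the least sugar, held the least of this gene.

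The difference between the arms on day 0 was itself compared between seasons. In 5 members (VIT_08s0007g04240, VIT_05s0049g02240 and 3 with neighbouring IDs, VIT_01s0137g00520, VIT_01s0137g00550 and VIT_01s0137g00560) the 2014 difference departed from the mean of those of 2012 and 2013, all 5 towards lower values at 75%, beside 2.69% of all tested genes (0.0578% higher, 2.63% lower). The members' share, 2.5%, is at the background. Over all 200 the median departure was 0.37 (log2), towards higher values at 75%, with 167 members above 0, and that of all genes was −0.07. The last 3 are named because the count is small, after their values were seen. VIT_08s0007g04240 held 39.5, 4.77 and 53.4 RPKM in the 50% pools of 2014 (replicates 1, 2 and 3) and 1.73, 0.748 and 6.22 in the 75% pools. In 2012 its 6 pools held 2.57 to 4.86 RPKM and in 2013 1.75 to 2.90, the arms overlapping in both. In 2014, 2 of the 50% pools lay far above every pool of the other seasons, while the one with 4.77 RPKM lay within the range of 2012. The 75% pools with 0.748 and 1.73 RPKM lay below every pool of 2012 and 2013. The arms of 2014 overlapped too. The 2014 difference was −2.84 ± 0.57, and it departed from the other seasons by −3.00 ± 0.70 (limma adjusted p = 0.00274). VIT_05s0049g02240 held 124, 8.16 and 156 RPKM in the 50% pools of 2014 and 12.0, 5.48 and 19.2 in the 75% pools, and its departure was −2.56 ± 0.60 (limma adjusted p = 0.00274). In the 3 neighbouring genes the departures were −1.67, −1.90 and −0.90, in the order above. Without replicate 1 or without replicate 3 of every group, 2 members were called.

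Seasons were compared on day 0 and about a month after veraison, and more members were called on day 0. Of the 200, 22 were higher and 2 lower in 2013 than in 2012, beside 1.25% of all tested genes called (0.717% higher, 0.53% lower). Between 2014 and 2012 none was higher and 31 were lower, beside 6.42% (4.13% higher, 2.29% lower). In 2014 against 2013, 1 was higher and 71 were lower, beside 7.84% (5.05% higher, 2.79% lower), with a median difference of −0.75 (log2) in the members. The 2013 and 2012 pools of VIT_18s0001g11610 did not overlap, at 60.9 to 112 RPKM (median 86.2) and 17.6 to 35.3 (median 23.9), a difference of 1.75 ± 0.19 (limma adjusted p = 1.49e-13). VIT_15s0046g01610 held 6.54 to 12.8 RPKM (median 10.9) in 2013 and 1.26 to 3.14 (median 2.60) in 2012, a difference of 1.73 ± 0.25 (limma adjusted p = 2.42e-08). These 3 comparisons share their groups of pools, whose sugar is given above. All day 0 pools of 2014 were of the second form and those of 2012 and 2013 of the first. In the comparisons with 2014, season and form therefore cannot be told apart. Of the 31 and 71 members called lower there, 3 and 3 were tied to the form. That label rests on green-stage libraries of 2013, so it could miss members whose level was low there. The counts therefore do not limit the part of the form. The order of the seasons in the members' day 0 levels is that of their sugar means, and the part of sugar was not tested. Without the second replicate of every group, the count of 2014 against 2013 was 37, and without the first that of 2013 against 2012 was 11.

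About a month after veraison fewer members were called between seasons. On day 32 of 2012, day 29 of 2013 and day 28 of 2014, sugar was 20.4 ± 2.79, 22.4 ± 1.57 and 19.3 ± 1.58 g/100 ml (SD, n = 6 each). In 2013 against 2012, 10 members were higher and 2 lower, beside 1.8% of all genes called (1.04% higher, 0.761% lower). In 2014 against 2012, 2 were higher and 12 lower, beside 2.73% (0.462% higher, 2.26% lower). In 2014 against 2013, 1 was higher and 11 lower, beside 2.58% (0.337% higher, 2.24% lower). The difference was under 0.5 on the log2 scale in 133, 160 and 161 members (66.5%, 80% and 80.5%), lower shares than the 89.1%, 89.7% and 90.5% of all genes. VIT_05s0020g02170 was higher in both later seasons, with 13.1 to 24.3 RPKM (median 18.5) in 2013, 8.43 to 29.3 (median 19.0) in 2014 and 1.66 to 13.9 (median 9.11) in 2012. Its differences from 2012 were 1.33 ± 0.26 (limma adjusted p = 1.36e-05) and 1.30 ± 0.26 (limma adjusted p = 2.12e-05), and the seasons overlapped. VIT_16s0039g00880 held 6.36 to 11.6 RPKM (median 10.4) in 2014, above its 0.881 to 6.02 (median 4.74) in 2012 and its 1.98 to 4.20 (median 3.34) in 2013. The difference was 1.28 ± 0.20 (limma adjusted p = 5.18e-08) from 2012 and 1.35 ± 0.20 (limma adjusted p = 1.02e-08) from 2013. By day 49 of 2014 it was at 1.49 to 2.36 RPKM, lower than on day 28 by a log2 difference of −1.93 ± 0.20 (limma adjusted p = 3.17e-15).

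Season and form of the values cannot be told apart in these comparisons with 2014 either. With a term for the form, 4 members were called in 2014 against 2012 and 4 in 2014 against 2013. The term rests on green-stage groups of 2013 and adds its error to each comparison with 2014. The lower counts can therefore also come from lost precision. Of the 12 and 11 called lower without that term, 3 and 3 were tied to the form, by a label that could miss members low in green berries. Without replicate 1 of every group the count of 2013 against 2012 was 7, with 2 higher and 5 lower. The last 2 time points of 2013 held both forms, with 3 libraries of the first (50% arm, day 36) and 9 of the second. There 12 members were at least 2-fold lower in the second form, beside 1.95% of all tested genes, and none was 2-fold higher. At least 4-fold lower were 4 members, beside 0.698% of all tested genes, and none was 4-fold higher. VIT_06s0009g02970, 1 of the 4, held 21.8 to 27.8 RPKM in the first form and 2.36 to 3.57 in the second. The 3 libraries of the first form are 1 arm on 1 day, so form, arm and day cannot be fully told apart there.

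The members VIT_12s0034g01970, VIT_12s0034g01910 and VIT_12s0034g01880 have close ID numbers and differed in this respect. After day 22, VIT_12s0034g01970 was high in every season and form. VIT_12s0034g01910 held 22.5 to 31.1 RPKM (median 27.7) on day 32 of 2012, 17.0 to 23.5 (median 20.0) on day 29 of 2013 and 0 to 1.18 (median 0.262) on day 28 of 2014. The 2014 libraries lay below all others, but on day 36 and day 43 of 2013 the same gene held 26.3 to 34.0 RPKM in the first form and 0 to 0.368 in the second. For this gene the season difference and the form cannot be told apart, and before veraison, where the fit compared the forms, its level was near 0. VIT_12s0034g01880 held 194 to 281 RPKM (median 220) on day 32 of 2012. On day 29 of 2013 it held 0 to 3.84, with 3 of 6 libraries listed at 0, and on day 28 of 2014 0 to 1.37, also with 3 listed at 0. It was low in both forms of 2013, so that here the season moved with the level. Its E − G was 6.92 in 2012, 0.52 in 2013 and 0.14 in 2014, so its place on the list rests on 2012. Why it was low in the later seasons was not tested.

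**Figure D5:**
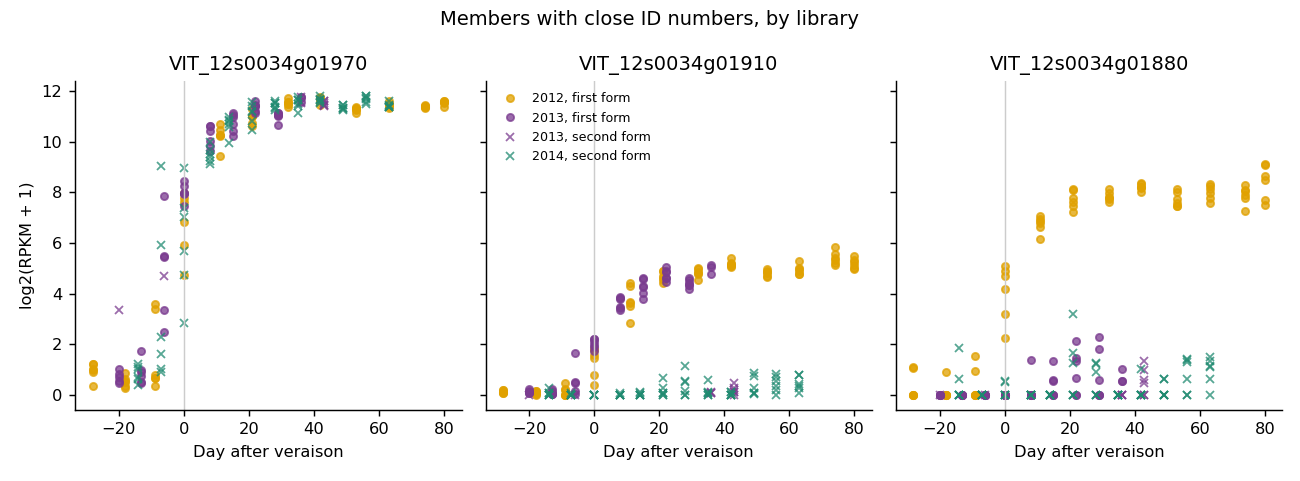
Level as log2(RPKM + 1) against day after veraison in each library for 3 members with close ID numbers, by season (colour) and form of the values (circles first, crosses second). VIT_12s0034g01970 is high after day 22 in all libraries, VIT_12s0034g01910 is near 0 in those of the second form, and VIT_12s0034g01880 is high in 2012 alone.

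The IDs give the members' order in the annotation, and some members lay close together in it. Of the 200, 59 (29.5%) had another member within 50 ID numbers under the same prefix, and 55 (27.5%) of the genes with an H − E of −1 or less and 30 (15%) of those with an H − E of 1 or more had a neighbour from their own list. The share for any 200 tested genes was not computed, so whether 29.5% is more than usual is open. The members formed 21 runs of 2, 3 of 3 and 2 of 4, the longest being VIT_08s0058g00400 to VIT_08s0058g00440 and VIT_12s0034g01880 to VIT_12s0034g01970. The labels do not say how reads shared by similar neighbouring genes were assigned, so values within a run may not be independent. IDs that start with VIT_02s made up 20 members (10%, against 3.86% of tested genes), those with VIT_08s 21 (10.5% against 6.24%) and those with VIT_00s 6 (3% against 7.92%). Under the prefix VIT_02s0025 there were 12 members among 396 tested genes. These shares are a description with no test.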

How the data were processed

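The authors' deposited table gives RPKM values per gene for 3 libraries in each of 68 cells (arms at each time point). The libraries did not keep strand, per the labels' protocols. The submitters' processing notes name TopHat2 2.0.6 and Cufflinks 2.0.2. Their settings, genome build and annotation are not given. Depth is unknown, and antisense overlaps cannot be told apart. A listed 0 can be a failed estimate: 546 of 40800 member values were 0, 80.8% of them in green libraries, and in 8 members a 0 stood beside 2 replicates of at least 5 RPKM.

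Season, arm and replicate were taken from the titles and source names, and day and sugar from the labels. A separate year tag names another year for 134 samples, including 12 of the 18 of day 0. Day after veraison follows the season of the title, which was used throughout, so every season comparison rests on the titles. The 200 members, the lists and the tests were chosen with earlier results of these data known. Values were tested as log2(RPKM + 1), which understates the change of low genes, with limma 3.58.1 in R 4.3.3 (intensity trend, two-sided, Benjamini-Hochberg adjustment over all 20770 genes with at least 1 RPKM in 3 or more libraries). There were 16 comparisons. The threshold was an adjusted p of 0.05, and for stages and seasons also a 2-fold change. Thinning over the whole course was fitted with 34 season time points and a coefficient per season, and every other comparison with the 68 cell means. The code was tested on simulated data. Genes named for a comparison are at most the 2 largest called in each direction, with the same sign in each season where seasons were averaged. Named by level are the 2 members with the largest difference and the 2 highest of the others, leaving out genes with a 0 of the kind above. Alternatives covered the pseudocount, filters, scaling, the form of the values, seasons, single replicates and a replicate block.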

Additional observations from a re-analysis of the deposited data

Results flagged for a closer look

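The difference between the thinning arms on day 0 was not the same in 2014 as in 2012 and 2013 for 5 of the 200 genes, by a test of the difference itself in limma. This share, 2.5%, is at the background of 2.69% of all genes, so the count is no result about the members as a group. The median departure of the 200 was 0.37 (log2), towards higher values at 75%, and that of all genes was −0.07. VIT_08s0007g04240 departed by −3.00 (log2) and VIT_05s0049g02240 by −2.56, both lower at 75% thinning in 2014 and not in the other seasons. In 2014 replicates 1 and 3 of the 50% arm were high in both genes (39.5 and 53.4 RPKM, and 124 and 156 RPKM), while replicate 2, with the least sugar, held 4.77 and 8.16. The part of sugar in these differences was not tested.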

How the results depend on the processing

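Chosen again under 13 other settings, the list shared 160 to 200 genes with the 200 members, and all members present kept a positive difference between green and early berries. Over all settings, 200 of the counts and values of whole comparisons held, while 23 were weaker, 9 stronger, 4 reversed and 1 moved. A count held if it kept its direction and stayed within 1.5 times. The share reached on day 0 held if it moved by less than the SD between the day 0 libraries of its season. Among values of single named genes, 420 kept their call and 68 lost it. For the exceptions below the cause was not tested, beyond the fewer samples where libraries were left out.

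The 2 calls for thinning over the whole course became 1 with a pseudocount of 0.1 and 1 with no filter, 4 with median ratio scaling, 0 with quantile normalization, 0 with a term for the form and 0 without 2013 or without 2014; leaving out a replicate gave 0 to 1. For thinning on day 0, the 25 became 13 with a pseudocount of 0.1, 13 without 2012 and 0 without 2014, and 2 to 28 without a replicate. For 2012 alone it was 1 with no filter and 1 with a filter of 5 RPKM, and 0 to 6 without a replicate. For 2014 alone leaving out a replicate gave 4 to 61 (23 without replicate 1 of every group and 22 without 75% replicate 1), and more were lower than higher at 11 (without 50% replicate 2), 7 (without 75% replicate 3) and 4 (without replicate 3 of every group). The departure of 2014 ranged from 2 to 6. About a month after veraison, 2014 against 2012 and against 2013 gave 4 and 4 with a term for the form; without a replicate 2013 against 2012 gave 7 to 18, with 7 mostly lower. Without a replicate, the day 0 seasons gave 11 to 27 (2013 against 2012) and 37 to 79 (2014 against 2013), and days 32 to 63 of 2012 gave 7 to 13. With the first time point as the green level, chosen after seeing the data, the share reached on day 0 of 2013 was 90.6%.

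Same-numbered pools of the 2 arms had a median correlation of 0.03 (102 pairs, 35 over 0.1, highest 0.75). Pools with different numbers had a median of −0.03 (highest 0.50). On day 0 of 2014, sugar was lowest in replicate 2 and highest in replicate 3 of both arms. In 2012 and 2013 its order on day 0 differed between the arms. Whether the numbers pair pools at single time points is therefore open. A replicate block left the counts at 25, 38 and 91 for thinning on day 0, its 2014 part, and the middle against day 0. With 3 pools a group and no depth, small differences on day 0 could not be resolved.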

Other observations

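The genes with the same kind of increase but an H − E of −1 or less held a median of 8.58% of the summed RPKM on day 0, 8.90% in early ripening, 3.99% in the middle and 2.67% at harvest. Those with an H − E of 1 or more held 3.55%, 5.58%, 7.50% and 8.54%. On day 0 of 2014, limma called 18 of the former for thinning (15 higher, 3 lower at 75%) and 15 of the latter (4 higher, 11 lower). In total these shares, 9% and 7.5%, lie below the 10.3% of all genes (1.28% higher, 9% lower). By direction, calls higher at 75% were more frequent in the former list than over all genes. The difference was above 0 in 188 of the former, 124 of the latter and 179 of the kept genes. The median difference was 0.55 (log2) in the former, 0.05 in the latter and 0.50 in the kept genes. From day 0 to the middle, 6 of the former rose and 88 fell, and 181 of the latter rose and 1 fell, directions that the choice of the lists largely fixes.

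In 8 members the level on day 0 was lower than in green berries in at least 1 season, and in 4 less than 25% of the difference was present on day 0 in every season. VIT_19s0085g00920, chosen after its values were seen, had 10.5 RPKM as the median of day 0 (5.54 to 16.6), 12.1 in green berries (1.92 to 26.6) and 90.3 in the middle (51.6 to 166).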
